A study of Mus musculus with 8 samples.

Results

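The genes described here are 8 members of the Meis, Pbx and Pknox groups of TALE homeobox genes, out of 16913 genes in the table. They were taken by symbol and are the deleted gene Meis2, its paralogs Meis1 and Meis3, and the partner genes Pbx2, Pbx3, Pbx4, Pknox1 and Pknox2. RNA came from lateral ganglionic eminence (LGE), the embryonic ventral forebrain tissue that gives rise to striatal projection neurons, dissected at embryonic day 14.5. The 4 Meis2-CKO samples were Dlx5/6-Cre;Meis2F/F, with 2 floxed Meis2 alleles. The 4 Ctrl samples were littermates of genotype Dlx5/6-Cre;Meis2F/+, with 1 floxed allele. All 8 samples thus carried the Cre driver, which acts in Dlx-expressing cells of the ventral forebrain, in mice of mixed C57BL/6J and CD1 descent, and no group was wild type. The comparison asks how LGE transcripts differ once both Meis2 alleles can recombine in the Dlx lineage.

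TALE homeodomain proteins carry a homeodomain with a lengthened loop between its first and second helices. Meis and Pknox (also called Prep) proteins bind Pbx proteins through their amino-terminal regions, and the complexes bind DNA together, often with Hox or other homeodomain factors. Partner binding also affects whether Pbx proteins are kept in the nucleus. In the embryonic forebrain Meis2 is known as a marker of the LGE and of developing striatal neurons.

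The homeobox stretches of the Meis genes are shown because Meis2, the deleted gene, is 1 of 3 close paralogs, and their likeness bears on whether reads can be assigned to one gene. They were read from GENCODE M21 transcripts (GRCm38) and cover the 189 bases that encode the homeodomain. In each gene they spanned exons 8 to 10 of the transcript with the longest coding sequence. The Meis2 stretch lies on chromosome 2, between 115868767 and 116000205 on the minus strand. That of Meis1 lies on chromosome 11, between 18885615 and 18941733 on the minus strand, and that of Meis3 on chromosome 7, between 16182394 and 16184074 on the plus strand. Sequences run 5′ to 3′ in the coding direction, and capitals mark bases that differ from Meis2.
Meis2: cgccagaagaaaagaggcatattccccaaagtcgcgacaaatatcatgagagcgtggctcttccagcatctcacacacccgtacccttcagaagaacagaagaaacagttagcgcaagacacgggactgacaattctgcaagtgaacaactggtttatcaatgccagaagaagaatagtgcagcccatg
Meis1: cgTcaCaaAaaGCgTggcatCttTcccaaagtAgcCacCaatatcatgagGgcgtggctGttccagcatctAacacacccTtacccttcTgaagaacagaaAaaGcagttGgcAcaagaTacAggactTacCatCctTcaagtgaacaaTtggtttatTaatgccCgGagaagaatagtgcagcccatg
Meis3: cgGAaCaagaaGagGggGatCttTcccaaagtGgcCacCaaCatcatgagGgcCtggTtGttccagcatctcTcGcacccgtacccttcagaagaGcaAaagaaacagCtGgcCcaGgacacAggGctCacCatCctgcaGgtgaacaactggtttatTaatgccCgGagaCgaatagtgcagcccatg
Meis1 differed from Meis2 at 30 of the 189 bases and Meis3 at 34.

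Of the homeobox stretches, the loop is the feature that gives the class its name. It is shown for all 8 members as 45 bases, with the 9 bases that encode its proline, tyrosine and proline in capitals.
Meis1: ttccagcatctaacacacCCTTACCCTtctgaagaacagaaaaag
Meis2: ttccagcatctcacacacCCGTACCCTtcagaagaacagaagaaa
Meis3: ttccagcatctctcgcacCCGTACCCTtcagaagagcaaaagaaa
Pknox1: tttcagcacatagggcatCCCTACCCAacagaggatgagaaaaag
Pknox2: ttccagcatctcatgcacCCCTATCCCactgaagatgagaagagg
Pbx2: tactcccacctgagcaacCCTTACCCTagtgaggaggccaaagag
Pbx3: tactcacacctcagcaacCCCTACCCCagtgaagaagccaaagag
Pbx4: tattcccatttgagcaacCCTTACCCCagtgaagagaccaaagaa
The first of these codons was codon 27 of the 63-codon homeobox in all 8 members, with synonymous base changes between them. Over the whole homeobox, Pknox2 shared 71.4% of bases with Meis2 and Pknox1 66.1%. Pbx3 shared 50.8%, Pbx2 48.1% and Pbx4 46.6%. Between Pknox1 and Pknox2 the identity was 78.3%, and among the Pbx genes it lay between 79.4% for Pbx3 with Pbx4 and 82.5% for Pbx2 with Pbx3.

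**Figure D1:**
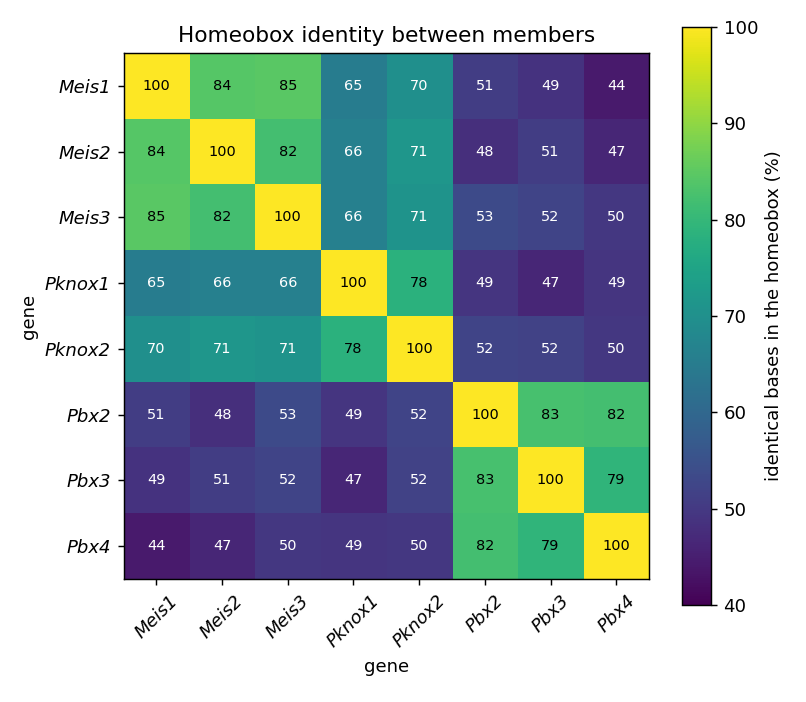
Share of identical bases (percent, colour and number) between the 189-base homeobox stretches of each pair of the 8 genes. The 3 Meis genes form a block at 82.0% to 84.7%, the 2 Pknox genes stand nearer to them than the 3 Pbx genes do, and Meis1 with Pbx4 is lowest at 44.4%.

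For each genotype the authors gave a mean expression signal, and for the comparison a log2 fold change, with Meis2-CKO over Ctrl, and p-values. The sources used here name no unit for the signal, and the depth is unknown. The means carry no spread, and values of single samples were not analysed here because their column names match no sample label. No SD, interval or own test therefore stands beside them. A gene was called when its deposited adjusted p was below 0.05. Of 16913 genes, 132 (0.78%) were called in the authors' deposited table, 92 of them lower in Meis2-CKO (0.544%) and 40 higher (0.237%). Among protein-coding genes alone, with p adjusted over them, 40 were called, Meis2 included. The median deposited p was 0.760. A gene that was not called is not shown to be alike in both genotypes. Each of the 7 members other than Meis2 had an adjusted p of 0.99999 in the authors' deposited table, so the unadjusted p is given for them.

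Meis2 was the 1 member called, and it fell. Its mean signal was 140.4 in Meis2-CKO and 204 in Ctrl, so that the mean fell by 31.3% on the linear scale (ENSMUSG00000027210, chromosome 2, 115863064 to 116065839, GRCm38). In the authors' deposited table Meis2 fell by 0.53 on the log2 scale, with an unadjusted p of 1.08e-05 and an adjusted p of 0.00195. This is a 1.46-fold difference of the means, and the call is lost where a fold change of at least 1.5 is also required. Ctrl samples also carried 1 floxed allele, so 204 is not a wild-type level. In bulk tissue, fewer cells that express Meis2 and less Meis2 RNA per cell cannot be told apart. The labels do not say which exons are floxed, and the table gives 1 value per gene, so RNA from recombined alleles and RNA from cells outside the Dlx lineage can both count towards the 140.4 that remained.

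The fall of Meis2 was small in size for a called gene. By p it ranked 93rd of all genes, whereas by the size of its log2 fold change it ranked 1589th. A log2 fold change at or below that of Meis2 was listed for 923 genes in the authors' deposited table, and 91 of these were called. Of the 132 called genes, Klhl13 alone had a smaller log2 fold change in size (-0.51 in the authors' deposited table, with means of 44.9 in Meis2-CKO and 64.5 in Ctrl). Among the called genes, however, 66 had a mean of 0 in 1 genotype and 74 had fewer than 300 exon bases. The ranking by size thus sets Meis2 beside many such genes. Meis2 was also among the more abundant called genes, at the 97.5th percentile of mean signal over both genotypes. Only Cwc22, a splicing factor gene, the imprinted non-coding Meg3 and Dlx1as, an antisense transcript of Dlx1, were called with a higher mean. These 4 genes were named after their values were seen. In all, 429 genes had a mean above that of Meis2.

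**Figure D2:**
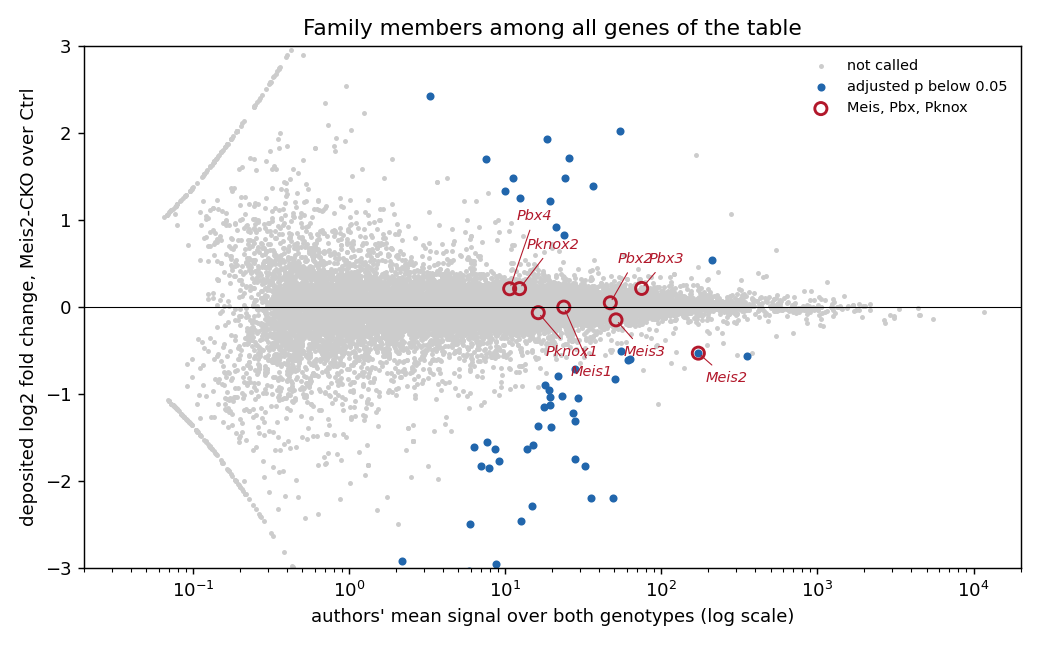
Deposited log2 fold change of Meis2-CKO over Ctrl against the authors' mean signal over both genotypes (log axis) for all genes, with called genes in blue and the 8 family members ringed. Meis2, at -0.53, is the 1 ringed gene that was called, and the other 7 lie between -0.15 and 0.21. Axes stop at 3 on the log2 scale and at a low mean signal, which together leave 108 genes outside the plot.

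Neither Meis paralog was called. Meis1, a Meis gene known from blood and limb development, had a mean signal of 23.6 in Meis2-CKO and 23.8 in Ctrl (ENSMUSG00000020160, chromosome 11, 18879817 to 19018985). The authors' deposited table gave it a log2 fold change of -4.49e-05 (p = 0.9998). The 2 means differed by less than 1 signal unit. Meis3, a paralog known from hindbrain patterning in frog and fish, had a mean signal of 48.3 in Meis2-CKO and 54.0 in Ctrl (ENSMUSG00000041420, chromosome 7, 16175090 to 16186504). In the authors' deposited table Meis3 had a log2 fold change of -0.15 (p = 0.305). Neither paralog thus had a higher mean in Meis2-CKO.

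Summed over the Meis genes, the mean signal was 212 in Meis2-CKO and 282 in Ctrl. This sum and its shares read the signal as scaled by length, which is not stated. Meis2 has 12043 exon bases, Meis1 10532 and Meis3 3173, so without such scaling the shares would not hold. Meis2 made up 66.1% of that sum in Meis2-CKO and 72.4% in Ctrl. Meis3 made up 22.8% in Meis2-CKO and 19.1% in Ctrl, and Meis1 11.1% in Meis2-CKO and 8.43% in Ctrl. Meis1 and Meis3 together stood at 71.9 in Meis2-CKO and 77.7 in Ctrl, so their larger shares in Meis2-CKO went with a smaller Meis2 signal and not with a larger signal of their own. Meis2 remained the Meis gene with the highest mean in both genotypes, at 2.91 times Meis3 in Meis2-CKO and 3.79 times Meis3 in Ctrl.

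**Figure D3:**
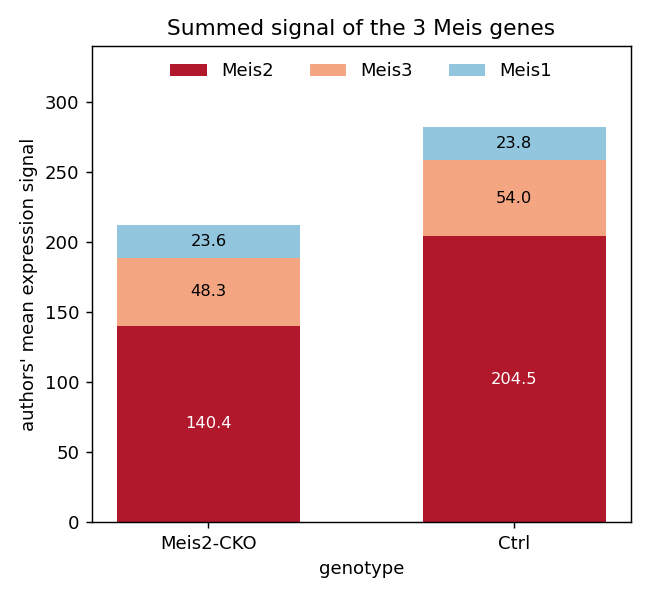
Stacked bars of the authors' mean signal of Meis2, Meis3 and Meis1 in Meis2-CKO and Ctrl LGE. Stacking reads the signal as scaled by length, which is not stated. The Meis2 segment is 140.4 in Meis2-CKO and 204 in Ctrl, while the other 2 segments together reach 71.9 in Meis2-CKO and 77.7 in Ctrl.

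None of the 3 Pbx genes was called, and each had a mean in Meis2-CKO above that in Ctrl. Pbx3, a Pbx gene of the developing nervous system, was the second most abundant member (ENSMUSG00000038718, chromosome 2, 34171457 to 34373142). Its mean signal was 79.9 in Meis2-CKO and 69.4 in Ctrl. In the authors' deposited table its log2 fold change was 0.21 (p = 0.0804), the smallest p among the 7 members other than Meis2. Pbx3 lies on the same chromosome as Meis2, far from it, and its mean differed the other way.

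Pbx2, a broadly expressed Pbx gene, had a mean signal of 47.6 in Meis2-CKO and 46.4 in Ctrl (ENSMUSG00000034673, chromosome 17, 34591266 to 34597400). For Pbx2 the authors' deposited table gave a log2 fold change of 0.05 (p = 0.738). Pbx4, known in the mouse mainly for expression in the testis, had the lowest signal of the 8, at 11.4 in Meis2-CKO and 9.915 in Ctrl (ENSMUSG00000031860, chromosome 8, 69832491 to 69872292). The authors' deposited table listed Pbx4 at a log2 fold change of 0.21 (p = 0.496). Pbx3 and Pbx4 thus had nearly the same log2 fold change at levels that differ widely, and the deposited p was smaller for the more abundant gene.

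The 2 Pknox genes differed in sign and neither was called. Pknox1, which encodes Prep1, had a mean signal of 15.8 in Meis2-CKO and 16.7 in Ctrl (ENSMUSG00000006705, chromosome 17, 31564734 to 31607693). A log2 fold change of -0.06 was listed for Pknox1 in the authors' deposited table (p = 0.798). Pknox2, which encodes Prep2, had a mean signal of 13.2 in Meis2-CKO and 11.5 in Ctrl (ENSMUSG00000035934, chromosome 9, 36890982 to 37147407). Pknox2 had a log2 fold change of 0.21 in the authors' deposited table (p = 0.461).

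In all, 1 of 8 members was called, beside 0.78% of all genes, and the called member is the deleted gene. Without Meis2, 0 of 7 were called by adjusted p, and 0 of 7 had an unadjusted p below 0.05 in the authors' deposited table, beside 2.17% of all genes. No other tool could be run on the means. The deposited log2 fold changes of these 7 ran from -0.15 for Meis3 to 0.21 for Pbx3, 4 above 0 and 3 below. The median log2 fold change of the 8 members was 0.02, beside 0.01 for all genes. Leaving out Meis2 it was 0.05, and the median size of change of those 7 was 0.15 on the log2 scale, beside 0.11 for all genes.

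The order of the levels was the same in both genotypes. From high to low it ran Meis2, Pbx3, Meis3, Pbx2, Meis1, Pknox1, Pknox2 and Pbx4. The distance from Meis2 to the next member was smaller in the mutant, at 1.76 times Pbx3 in Meis2-CKO and 2.94 times Pbx3 in Ctrl. Meis3 and Pbx2 were the closest neighbours in Meis2-CKO, at 48.3 and 47.6. With no spread over samples, whether neighbours in this order differ beyond it was not tested. Levels of different genes are set side by side on the reading that the signal is scaled by length. When protein-coding genes were split by exon length into 5 bins, the median Ctrl signal was 9.18 at a median of 1724 exon bases and 14.2 at 10060. If the signal were not scaled by length, dividing it by exon length would put Meis3 first in both genotypes and Meis2 at rank 4 in Meis2-CKO and rank 2 in Ctrl.

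**Figure D4:**
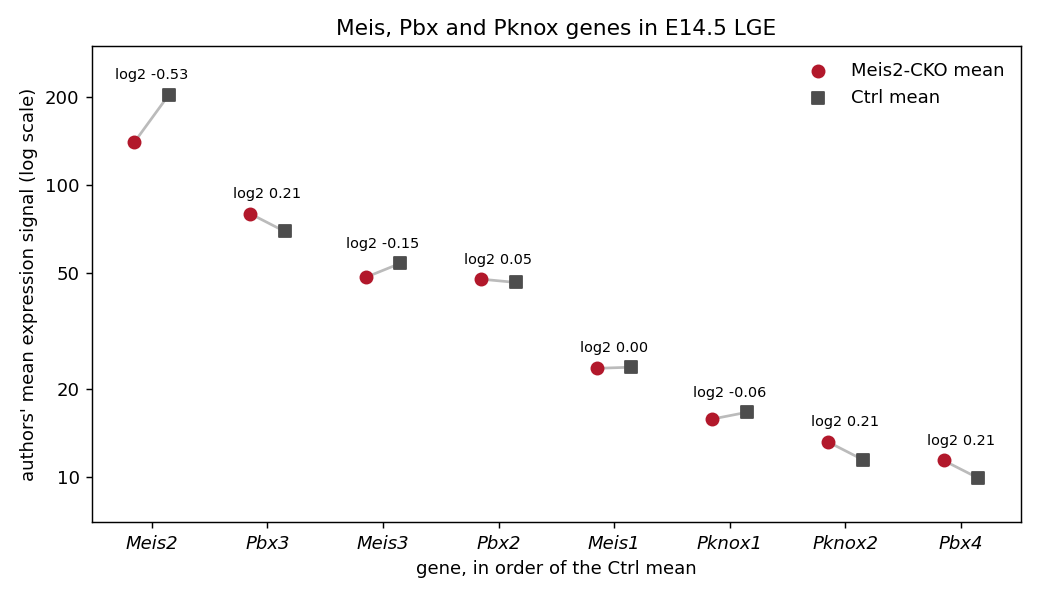
The authors' mean signal (log axis) of each member, with Meis2-CKO as red circles to the left of Ctrl as grey squares and the deposited log2 fold change above each pair. The step of Meis2, 140.4 in Meis2-CKO and 204 in Ctrl, is the largest of the 8, and the order of the genes is the same in both genotypes.

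Little transcript sequence was shared between the members. Over 28 pairs of members, 8 shared any exact stretch of at least 20 bases between their annotated transcripts. The longest was 42 bases, between Meis2 and Pknox2, and Meis2 shared at most 32 bases with Meis1 and 28 with Meis3. None of the 50-base stretches of any member occurred in another of the 8 genes. The sources used here state neither the read length nor how shared reads were counted. Overlap with other genes was larger: 17.0% of the 50-base stretches of Meis1 occurred in other genes, mostly Gm37818 and Gm16140. Gm37818, which lies within the Meis1 span on the same strand, had a mean signal of 1.39 in Meis2-CKO and 1.39 in Ctrl (by the authors' deposited table a log2 fold change of 0.01). Another gene within that span, 2900018N21Rik, had 0.807 in Meis2-CKO and 0.787 in Ctrl. For Pbx2 the share was 4.93%, all of it in Gpsm3, whose 3′ end overlaps Pbx2 and whose mean signal was 0.99 in Meis2-CKO and 0.76 in Ctrl. For Meis2 the share was 0.19%.

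Genes around Meis2 were not called. The table listed 5 genes within 1 Mb of Meis2, and none overlapped it. By adjusted p 0 of 5 were called, beside 0.78% of all genes. An unadjusted p below 0.05 was listed for 0 of 5 in the authors' deposited table, beside 2.17% of all genes. With 5 genes, counts of 0 are near these shares. The nearest, 2700033N17Rik, lies 0.379 kb upstream of Meis2 on the same strand (chromosome 2, 116066218 to 116067444). Its mean signal was 17.4 in Meis2-CKO and 22.4 in Ctrl, and the authors' deposited table gave a log2 fold change of -0.35 (p = 0.122). This was the lowest fold change of the 5. G630016G05Rik, on the opposite strand 1.39 kb from Meis2, had 4.88 in Meis2-CKO and 4.87 in Ctrl. On the other side BC052040, 84.3 kb away, had a mean signal of 10.1 in Meis2-CKO and 9.46 in Ctrl (by the authors' deposited table a log2 fold change of 0.11).

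Other TALE-class genes gave no call either. Of 11 genes on that list, 4 were listed, with 0 called and 0 at an unadjusted p below 0.05 in the authors' deposited table. Over all genes these shares were 0.78% and 2.17%. Tgif2, a TALE repressor of Smad signalling, had a mean signal of 33.4 in Meis2-CKO and 29.7 in Ctrl, a log2 fold change of 0.18 in the authors' deposited table. Irx2, an Iroquois patterning gene, stood near 0 in both, at 0.557 in Meis2-CKO and 0.0975 in Ctrl. The list median of 0.47 lies midway between Tgif2 and Irx1. Irx1 and Irx2, the genes above it, were both below 1 signal unit in both genotypes. No row used here carried a Hox symbol, so those partners of Meis and Pbx proteins were not analysed here.

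A list of 19 genes was chosen as regulators and binding partners of Meis and Pbx proteins. Whether each listed gene regulates or binds these proteins was not tested here. Of the 19, 1 was called, beside 0.78% of all genes. This 1 gene is also on the list of LGE markers. Zfp503 (Nolz1), a zinc-finger gene of striatal neurons, fell to a mean signal of 7.35 in Meis2-CKO, against 22.5 in Ctrl. The authors' deposited table gave it a log2 fold change of -1.59 (adjusted p = 4.58e-06). The other 18 were not called, and the list median was 0.07, beside 0.01 for all genes. An unadjusted p below 0.05 was listed for 2 of 19, Zfp503 and Sp8, beside 2.17% of all genes. Sp8, a zinc-finger gene of ventral forebrain development, had a mean signal of 26.8 in Meis2-CKO and 17.3 in Ctrl, with an adjusted p of 0.337 in the authors' deposited table. Crbn, the ubiquitin-ligase receptor for which human MEIS2 is a known substrate, had a mean signal of 21.7 in Meis2-CKO and 19.98 in Ctrl (by the authors' deposited table a log2 fold change of 0.13, p = 0.558). Pbxip1, whose human product binds Pbx proteins, had 6.77 in Meis2-CKO and 6.16 in Ctrl. Sp8, Crbn and Pbxip1 were named after their values were seen.

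The Dlx genes, of which Dlx1 and Dlx2 stand upstream of Meis2 in the title of the series, had 0 of 4 called by adjusted p, while 4 of 4 had an unadjusted p below 0.05 in the authors' deposited table, beside 0.78% and 2.17% of all genes. The 4 did not share a direction. Dlx1 had a mean signal of 496 in Meis2-CKO and 393 in Ctrl (adjusted p = 0.370 in the authors' deposited table). Dlx5 had 92.1 in Meis2-CKO and 72.3 in Ctrl (adjusted p = 0.387 in the authors' deposited table). Dlx2 had 171 in Meis2-CKO and 137 in Ctrl. Dlx6 lay the other way, at 29.9 in Meis2-CKO and 39.8 in Ctrl, with a log2 fold change of -0.40 and an unadjusted p of 0.0219 in the authors' deposited table. Dlx1 is overlapped on the other strand by Dlx1as, and Dlx6 by Dlx6os1 and Dlx6os2. Whether counting used strand is not stated, so reads of these pairs cannot be told apart.

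**Figure D5:**
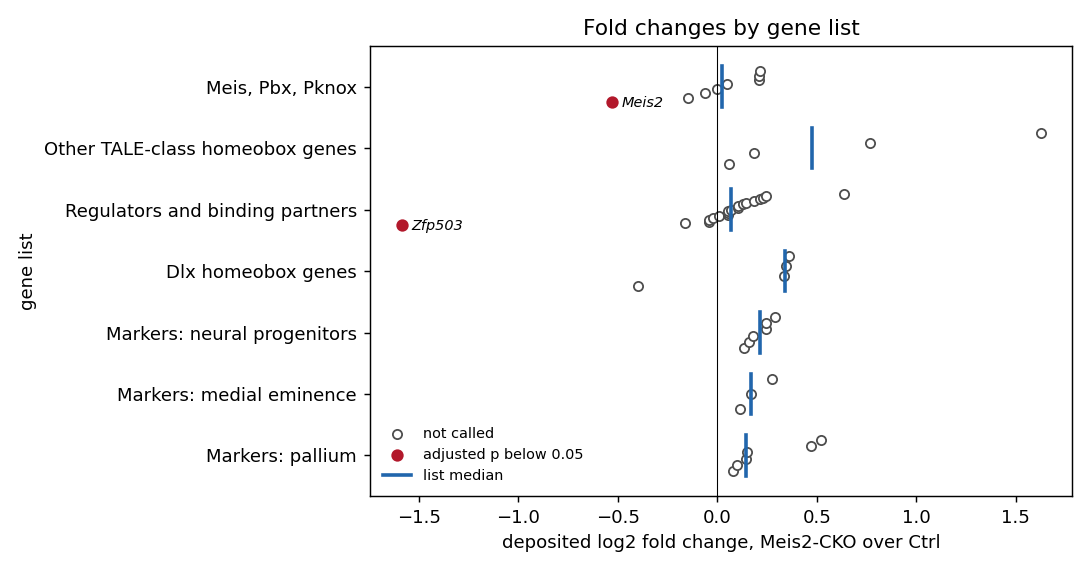
Deposited log2 fold change (Meis2-CKO over Ctrl) of each gene by list, with called genes filled and named, others open, and the list median as a bar. Among the lists drawn, which leave out the LGE markers, only Meis2, at -0.53, and Zfp503, at -1.59, are filled, and the Dlx list has 3 of 4 genes above 0.

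The tissue label was checked against marker genes. All 13 LGE and LGE-neuron markers were listed, at 3.75 to 496 in Meis2-CKO and 20.9 to 393 in Ctrl. By the deposited call 5 were lower and 0 higher, beside 0.544% and 0.237% of all genes. An unadjusted p below 0.05 was listed for 10 of 13 in the authors' deposited table, beside 2.17% of all genes. The 5 called markers are transcription factor genes of striatal neurons. Besides Zfp503, Isl1 had a mean signal of 12.5 in Meis2-CKO and 57.9 in Ctrl, and Ebf1 3.75 in Meis2-CKO and 21.3 in Ctrl. Foxp1 had 16.1 in Meis2-CKO and 40.2 in Ctrl, and Bcl11b 48.2 in Meis2-CKO and 74.1 in Ctrl. Among other cell types, the 6 pallial markers summed to 199.8 in Meis2-CKO and 175 in Ctrl and the 3 medial eminence markers to 28.4 in Meis2-CKO and 25.4 in Ctrl. Single pallial markers ran from 4.225 to 71.9 in Meis2-CKO and from 4.03 to 66.0 in Ctrl. Pallial signal was thus present in both genotypes, at levels within the range of the LGE markers for some genes. The 6 progenitor markers summed to 1764 in Meis2-CKO and 1562 in Ctrl. Red blood cell markers summed to 329 in Meis2-CKO and 314 in Ctrl, endothelial markers to 33.2 in Meis2-CKO and 32.2 in Ctrl, microglial markers to 19.0 in Meis2-CKO and 18.3 in Ctrl, and meningeal markers to 1.45 in Meis2-CKO and 3.29 in Ctrl. No marker of these 7 lists was at 0, and none was called, beside 0.78% of all genes. The 2 markers with the smallest p were Neurog2 (27.4 in Meis2-CKO and 19.2 in Ctrl) and Eomes (18.2 in Meis2-CKO and 13.2 in Ctrl) for pallium. For progenitors they were Nes (126 in Meis2-CKO and 104 in Ctrl) and Sox2 (142 in Meis2-CKO and 121 in Ctrl), and for medial eminence Lhx6 (19.2 in Meis2-CKO and 17.2 in Ctrl) and Lhx8 (3.72 in Meis2-CKO and 3.08 in Ctrl).

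Sex-linked genes were added after the values were seen, since the labels give no sex. Of 5 such genes, 5 had an unadjusted p below 0.05 in the authors' deposited table, beside 2.17% of all genes. By adjusted p 3 were called lower and 0 higher, beside 0.544% and 0.237% of all genes. The 3 were Y-linked. Eif2s3y had a mean signal of 14.02 in Meis2-CKO and 50.5 in Ctrl, Ddx3y 4.03 in Meis2-CKO and 14.1 in Ctrl, and Kdm5d 4.09 in Meis2-CKO and 13.05 in Ctrl. Uty, also Y-linked, had 2.36 in Meis2-CKO and 6.60 in Ctrl and was not called. Xist, expressed from the inactive X chromosome, had 256 in Meis2-CKO and 78.0 in Ctrl, with an adjusted p of 0.985 in the authors' deposited table. No member of the family lies on X or Y. In these genotype means, embryo sex cannot be told apart from genotype for any gene. The part of cell makeup or embryo sex in the Meis2 fall was not tested.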

How the data were processed

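RNA from LGE of 8 samples was profiled, 4 Meis2-CKO and 4 Ctrl. Per the submitters' processing notes, StringTie 1.3.1, HISAT2 2.1.0, FastQC 0.11.5 and the builds GRCm38.p2 and mm10 were used; their roles are not stated. The tool behind the comparison is likewise not named. The deposited table gives the authors' mean expression signal per genotype, their log2 fold change and their p-value with its adjusted form, per the file headers. Recomputing a Benjamini-Hochberg adjustment over all 16913 genes gave the same adjusted values. The deposited log2 fold change exceeded the log2 ratio of the means by a median of 0.01 where the mean was at least 10. The table also holds 8 columns of single libraries whose names match no sample label. They were not used, so the planned fits per sample, tests of replicates and likeness to Meis2 across samples were not run.

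Members were taken by symbol, and all 8 were found; no filter on low values was applied. Members and lists were chosen with earlier results of these data known. All members were named, and from each other list up to 6 called genes, or the 2 with the smallest p; near members, the genes overlapping one and those nearest Meis2. The rule was not followed for blood, endothelial, microglial and meningeal markers, given as sums alone. Genes outside it are marked in the text; Dlx2, Dlx6, Uty and Xist are further ones. Places, exon lengths and transcripts came from GENCODE M21 (GRCm38), matched by gene ID for 16861 genes. Adjustments were tested on simulated p-values. Python 3.11.15, numpy 2.4.6, pandas 2.3.3, biopython 1.88 and matplotlib 3.10.9 were used.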

Additional observations from a re-analysis of the deposited data

How the results depend on the processing

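Meis2 kept its call under 7 of 8 other rules on genes or thresholds. Its adjusted p, recomputed from the authors' p-values, lay between 0.00161 and 0.0202. All 8 rules reuse the authors' log2 fold change and p, so they cannot test its direction. The thresholds of 0.01 and 0.10 only restate its deposited adjusted p of 0.00195. Requiring a fold change of at least 1.5 ended the call at the same log2 fold change of -0.53, and the count of members called was then 0, against 1 under the others. A pseudocount of 1 on the means gave -0.54 for Meis2, as did centring on the median of all genes, and no member changed sign under either. Neither step is large enough to change the sign of Meis2. Over all genes the 132 calls became 40 among protein-coding genes (4 higher, 36 lower) and 51 among genes of 300 nt or more (8 higher, 43 lower). With a mean of at least 10, a choice made after seeing the data, they became 47 (13 higher, 34 lower). Fewer genes are tested in these settings, and called genes are among those left out. Of the 132, 74 have fewer than 300 exon bases. The Benjamini-Yekutieli adjustment, thresholds of 0.01 and 0.10 and a mean of at least 1 kept the count within 1.5 times. No paired analysis was possible because the 8 single-library columns match no sample label, so none could be given a genotype or replicate number, and the columns used are genotype means. Leaving out replicates and the fits per sample were not run for the same reason; the design of 4 samples per genotype would allow them. Depth is unknown, so no detection floor is given.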
